A study of Mus musculus with 17 samples.

Results

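Interferon-stimulated genes are the genes that a cell switches on after an interferon binds its receptor, and 33 of them were followed here by symbol in the DRGs of *Mtor*-cKO and *Mtor* fl/fl mice. Of these, 31 had a row among the 19152 genes of the count and FPKM tables, and *Mx1* and *Mx2* were not analysed here. The study asked how nerve injury changes DRG transcription and how much of that change needs mTOR in sensory neurons. *Mtor*-cKO mice were Adv-Cre::*Mtor* fl/fl, in which the Advillin promoter drives Cre in peripheral sensory neurons, so that the other cells of the ganglion keep the floxed alleles intact. *Mtor* fl/fl mice (labelled WT) carry the floxed alleles without Cre, and all mice were labelled C57BL/6, with no age in the labels. The methods give the background of both lines as C57BL/6J. DRGs were collected 7 days after bilateral spared nerve injury (SNI; D7) from 4 *Mtor*-cKO and 5 *Mtor* fl/fl mice, and in the uninjured basal state (baseline) from 4 *Mtor*-cKO and 4 *Mtor* fl/fl mice. Each of the 17 libraries holds the 4 ganglia (L4 and L5 of both sides) of 1 mouse.

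Type I interferons signal through JAK kinases to the factor ISGF3, which includes STAT2 and IRF9 and binds the interferon-stimulated response element (ISRE) of target promoters. Interferon gamma acts on promoters that hold the gamma-activated site (GAS), and IRF1 is one of its targets. The induced proteins include sensors of viral RNA and DNA, proteins that block viral RNA, the ubiquitin-like modifier ISG15 and the guanylate-binding proteins (GBPs), and neurons, glia and immune cells can all express them.

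Promoter sequences are shown for the 5 members with a motif match among the 8 whose D7 levels differed between the genotypes, because the ISRE and GAS are the elements through which interferons reach these genes. Each is the 250 bases before the RefSeq start site on GRCm38.p6, plus strand, read 5′ to 3′. Capitals mark matches to the ISRE core (GAAANNGAAA, on either strand) or to the GAS (TTCNNNGAA, a palindrome). The windows lie at chr3:142620413-142620662 (*Gbp2*), chr3:142530086-142530335 (*Gbp7*), chr19:34583279-34583528 (*Ifit3*), chr10:128270248-128270497 (*Stat2*) and chr19:34550444-34550693 (*Ifit2*).
Gbp2: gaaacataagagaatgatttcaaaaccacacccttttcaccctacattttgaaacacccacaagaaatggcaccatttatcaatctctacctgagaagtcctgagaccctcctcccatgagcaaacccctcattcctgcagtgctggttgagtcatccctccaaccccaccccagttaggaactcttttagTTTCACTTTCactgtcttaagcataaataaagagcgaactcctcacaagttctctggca
Gbp7: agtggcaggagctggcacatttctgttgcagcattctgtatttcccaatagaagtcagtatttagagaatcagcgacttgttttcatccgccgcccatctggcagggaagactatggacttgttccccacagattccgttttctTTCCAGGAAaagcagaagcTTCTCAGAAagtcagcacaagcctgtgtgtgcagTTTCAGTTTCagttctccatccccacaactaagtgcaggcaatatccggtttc
Ifit3: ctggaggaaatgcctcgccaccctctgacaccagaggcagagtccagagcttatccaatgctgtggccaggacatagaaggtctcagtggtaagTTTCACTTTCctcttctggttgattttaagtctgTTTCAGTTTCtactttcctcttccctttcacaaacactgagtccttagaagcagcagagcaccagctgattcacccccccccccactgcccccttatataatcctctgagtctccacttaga
Stat2: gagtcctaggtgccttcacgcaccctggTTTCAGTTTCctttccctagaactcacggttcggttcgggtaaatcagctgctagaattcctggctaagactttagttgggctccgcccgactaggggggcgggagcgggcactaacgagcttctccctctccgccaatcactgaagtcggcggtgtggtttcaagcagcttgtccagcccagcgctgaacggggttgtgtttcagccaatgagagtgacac
Ifit2: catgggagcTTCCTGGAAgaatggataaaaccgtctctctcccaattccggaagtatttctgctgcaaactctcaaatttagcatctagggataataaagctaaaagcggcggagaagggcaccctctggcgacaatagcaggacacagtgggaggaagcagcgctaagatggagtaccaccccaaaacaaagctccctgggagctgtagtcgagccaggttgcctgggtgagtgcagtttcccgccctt
*Gbp2* and *Stat2* each held 1 ISRE core, *Ifit3* held 2, and *Gbp7* held 1 ISRE core and 2 GAS matches. This *Ifit2* window held no ISRE core and 1 GAS match. Of the other 3 members that differed at D7, the windows of *Irf9* and *Ifi44* held neither motif, and the promoter of *Parp14* was not analysed here. RefSeq promoters, searched from 250 bases before to 50 bases after the start site, were found for 24 of the 31 genes, and an ISRE core was present in 12 of these genes. By comparison, 1079 of all 27025 genes with such promoters (3.99%) held one. Counted by promoter, 12 of the members' 31 promoters and 3.44% of all 32851 held one. A GAS match was present in 8 of the 24 genes, against 9.55% of all genes, and in 8 of the 31 promoters, against 8.3% of all promoters. The matches are letters in a window and not measured binding sites. In GENCODE M21 on GRCm38, the IFIT genes lie together on chromosome 19, with *Ifit2* at 34550694 to 34576419 and *Ifit3* at 34583531 to 34588731. The GBP genes lie on chromosome 3, with *Gbp7* at 142530342 to 142550149 and *Gbp2* at 142620602 to 142638008. *Stat2* lies on chromosome 10 at 128270559 to 128292849.

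The total of expected counts ran from 17060876 to 21076542 over the libraries. *Mtor* itself was listed at 3.44 to 5.83 FPKM in *Mtor*-cKO and 5.96 to 14.4 FPKM in *Mtor* fl/fl DRGs at D7, and at 3.16 to 6.36 FPKM in *Mtor*-cKO and 8.58 to 15.97 FPKM in *Mtor* fl/fl DRGs at baseline, with no overlap at either stage. All 5 axonal injury genes checked rose with injury in both genotypes, and 11 of 11 sensory neuron markers were expressed in the fit. The 4 Y-linked genes checked exceeded 1 FPKM in 17 of 17 libraries. Skeletal muscle transcripts stood far out in *Mtor*-cKO D7 replicate 1 and *Mtor*-cKO baseline replicate 2, and results were also computed without this pair.

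The tests covered the 13408 genes that averaged 1 FPKM or more (fragments per kilobase of transcript, scaled to library size) in any group, and all 31 members were among them. *Oas2* and *Oas3* entered only through *Mtor*-cKO D7, where they were highest. Neither passed in any of the 5 comparisons as fitted here, but both are among the members called under some of the other settings given below. A member is said to have risen or fallen at an adjusted p under 0.05 from edgeR's quasi-likelihood test, with Benjamini-Hochberg adjustment over all genes tested. Fold changes are on the log2 scale with approximate standard errors (SE).

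At D7, 8 of the 31 members were higher in *Mtor*-cKO than in *Mtor* fl/fl DRGs and none was lower. The 8 were *Irf9*, *Stat2*, *Ifit2*, *Ifit3*, *Gbp2*, *Gbp7*, *Ifi44* and *Parp14*. Of all genes tested, 12.9% were higher and 13.1% lower in this comparison. *Irf9*, *Ifit3*, *Gbp2* and *Ifi44* also exceeded a fold of 2, as did 1.14% of all genes. The median log2 fold change was 0.75 over the members and 0.03 over all genes, and 30 of the 31 estimates were above 0, against 54.6% of all genes. Without *Oas2* and *Oas3* the median was 0.73, with 28 of 29 above 0. Groups did not overlap for 3 members that were higher (*Irf9*, *Ifit2* and *Gbp2*), against 16.3% of all genes, nor for 1 that was listed lower (*Ifi27*), against 11% of all genes. In bulk DRG RNA, a change in the number of cells of a type and a change in RNA per cell cannot be told apart.

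**Figure D1:**
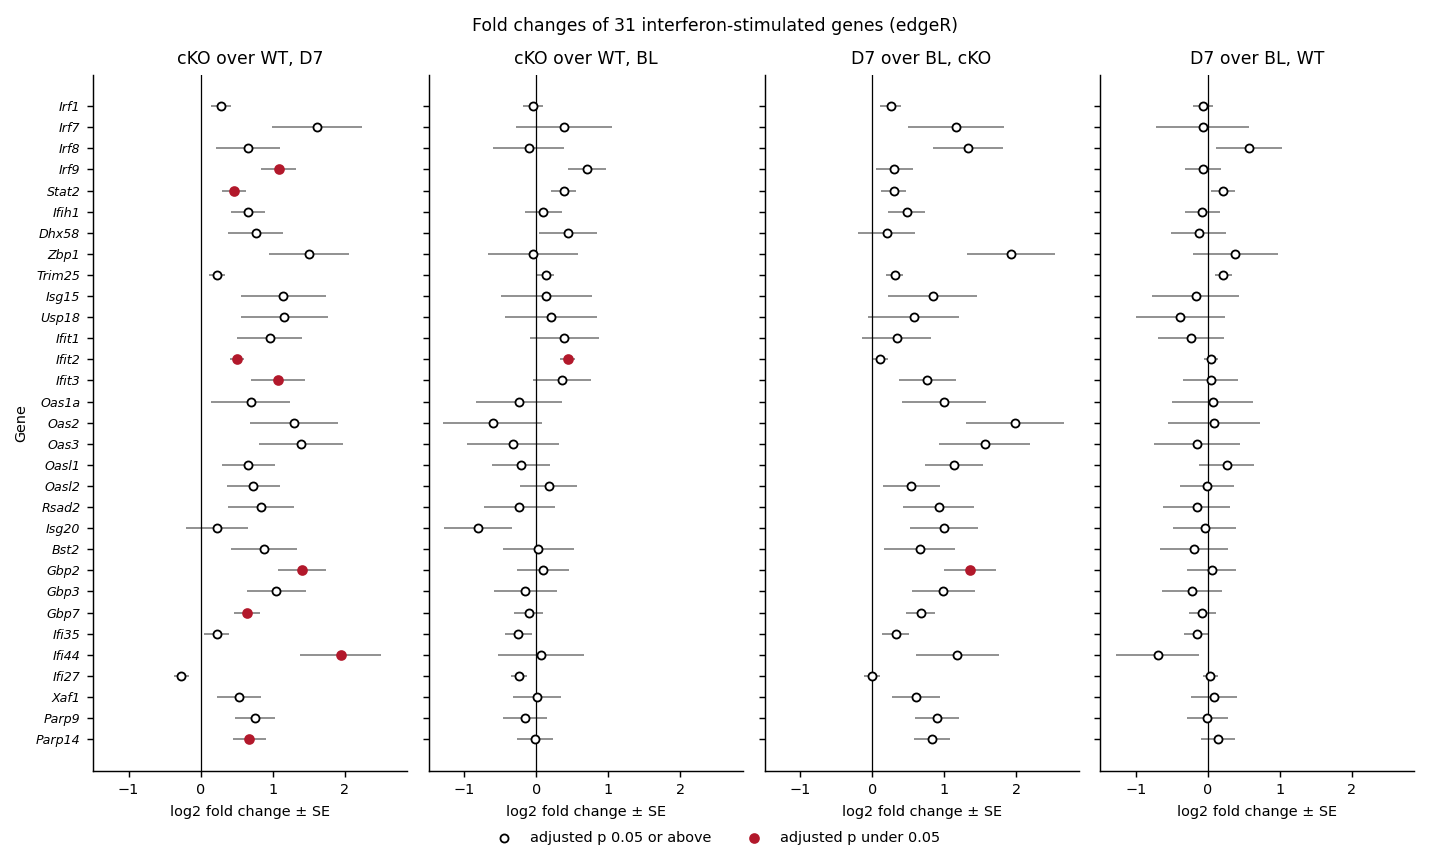
Log2 fold change with approximate SE (x axis) of 31 interferon-stimulated genes (y axis) for *Mtor*-cKO over *Mtor* fl/fl (WT) at D7 and at baseline (BL), and for D7 over baseline in each genotype. Filled points passed an adjusted p under 0.05, and they number 8, 1, 1 and 0 from left to right.

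Among the transcription factors, *Irf9* and *Stat2* rose, and *Irf1*, *Irf7* and *Irf8* did not pass. *Irf9*, which encodes the DNA-binding subunit of ISGF3, was listed at 23.1, 18.2, 24.9 and 12.3 FPKM in *Mtor*-cKO D7 replicates 1 to 4, against 6.89, 7.71, 9.94, 9.02 and 11.6 FPKM in *Mtor* fl/fl D7 replicates 1 to 5. At baseline it was 11.7, 11.4, 12.8 and 26.5 FPKM in *Mtor*-cKO mice 1 to 4 and 7.56, 7.24, 9.86 and 13.7 FPKM in *Mtor* fl/fl mice 1 to 4. The genotypes did not overlap at D7, whereas at baseline *Mtor* fl/fl replicate 4 lay among the *Mtor*-cKO values. The log2 fold change was 1.09 at D7 (SE 0.25, edgeR adjusted p = 0.00424) and 0.70 at baseline (SE 0.26, edgeR adjusted p = 0.0799). Its counts were not whole numbers in 10 of 17 libraries, so it is uncertain where reads are shared with similar sequences.

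*Stat2*, the most abundant of the transcription factors and the ISGF3 subunit that carries the activation domain, was listed at 25.9, 23.9, 28.3 and 18.4 FPKM in *Mtor*-cKO D7 replicates 1 to 4, against 17.01, 15.5, 18.4, 18.5 and 15.4 FPKM in *Mtor* fl/fl D7 replicates 1 to 5. In all, 3 of the *Mtor*-cKO D7 libraries exceeded every *Mtor* fl/fl D7 library, and replicate 4 fell among them. Baseline values, by replicate number, were 17.5, 14.5, 17.2 and 27.9 FPKM in *Mtor*-cKO mice 1 to 4 and 16.2, 15.7, 12.2 and 14.8 FPKM in *Mtor* fl/fl mice 1 to 4. The D7 log2 fold change was 0.47 (SE 0.17, edgeR adjusted p = 0.0493), close to the threshold, and the call was lost when any of 11 single libraries was left out. *Irf7*, which amplifies the interferon response, averaged 17.8 ± 10.96 FPKM in *Mtor*-cKO D7 (SD, n = 4) and 5.76 ± 2.73 FPKM in *Mtor* fl/fl D7 (SD, n = 5), with a log2 fold change of 1.62 that missed the threshold (edgeR adjusted p = 0.0679).

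**Figure D2:**
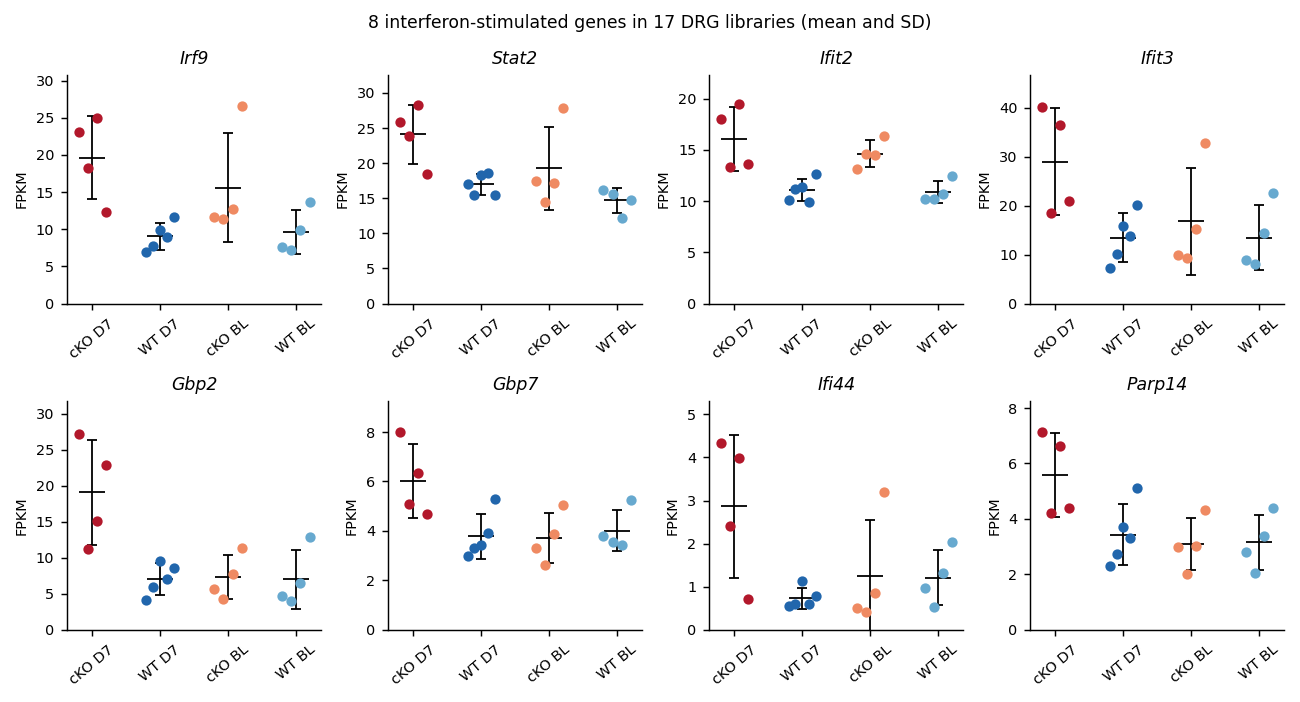
FPKM (y axis, from 0) of the 8 interferon-stimulated genes that passed in at least 1 comparison, by group (x axis; cKO, *Mtor*-cKO; WT, *Mtor* fl/fl; BL, baseline). Points are libraries and bars are the mean and SD, cut at 0 for *Ifi44*; *Ifit2* is higher in all *Mtor*-cKO than in all *Mtor* fl/fl libraries, whereas *Irf9*, *Stat2*, *Ifit3* and *Ifi44* have 1 high *Mtor*-cKO baseline library, replicate 4.

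The IFIT proteins bind viral RNA ends and block their translation. As fitted here, *Ifit2* was the one member higher in *Mtor*-cKO at both stages. Its level was 18.0, 13.3, 19.5 and 13.6 FPKM in *Mtor*-cKO D7 replicates 1 to 4, against 10.2, 11.2, 11.4, 9.96 and 12.7 FPKM in *Mtor* fl/fl D7 replicates 1 to 5. It was 13.1, 14.6, 14.5 and 16.4 FPKM in *Mtor*-cKO baseline replicates 1 to 4, against 10.2, 10.2, 10.7 and 12.4 FPKM in *Mtor* fl/fl baseline replicates 1 to 4. Each of the 8 *Mtor*-cKO libraries exceeded each of the 9 *Mtor* fl/fl libraries, a pattern shared by 4.15% of all genes. The log2 fold change was 0.50 at D7 (SE 0.10, edgeR adjusted p = 0.00186) and 0.43 at baseline (SE 0.11, edgeR adjusted p = 0.0110), and its log2 fold changes with injury, 0.11 in *Mtor*-cKO and 0.04 in *Mtor* fl/fl DRGs, did not pass.

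*Ifit3*, the most abundant IFIT gene, was listed at 40.1, 18.4, 36.6 and 20.9 FPKM in *Mtor*-cKO D7 replicates 1 to 4, against 7.29, 10.1, 15.8, 13.9 and 20.1 FPKM in *Mtor* fl/fl D7 replicates 1 to 5. The groups overlapped at *Mtor*-cKO replicate 2. At baseline, values were 9.98, 9.32, 15.2 and 32.8 FPKM in *Mtor*-cKO mice 1 to 4 and 8.81, 8.08, 14.4 and 22.6 FPKM in *Mtor* fl/fl mice 1 to 4, so that replicate 4 was the highest in both genotypes. The D7 log2 fold change was 1.08 (SE 0.38, edgeR adjusted p = 0.0436). *Ifit1* averaged 20.005 ± 10.9 FPKM in *Mtor*-cKO D7 (SD, n = 4) and 10.1 ± 2.69 FPKM in *Mtor* fl/fl D7 (SD, n = 5) and did not pass. Counts of *Ifit1* and *Ifit3* were not whole numbers in most libraries, 16 and 15 of 17, so both are uncertain where reads are shared with similar sequences. The same limit applies to *Isg15* (11 libraries), *Parp9* (13), *Xaf1* (15), *Oas3* (16), *Trim25* (17) and *Oas1a* (17).

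Of the guanylate-binding proteins, interferon-induced GTPases that act on intracellular pathogens, *Gbp2* and *Gbp7* rose and *Gbp3* did not pass. *Gbp2*, the most abundant of them, was listed at 27.2, 11.2, 15.0 and 22.9 FPKM in *Mtor*-cKO D7 replicates 1 to 4, against 4.08, 5.97, 9.57, 7.09 and 8.62 FPKM in *Mtor* fl/fl D7 replicates 1 to 5. Every *Mtor*-cKO D7 value lay above every *Mtor* fl/fl D7 value, and replicate 4, low for most other members, was the second highest. Its log2 fold change was 1.41 (SE 0.33, edgeR adjusted p = 0.00572). Baseline values were 5.71, 4.35, 7.80 and 11.4 FPKM in *Mtor*-cKO mice 1 to 4 and 4.67, 3.95, 6.46 and 12.9 FPKM in *Mtor* fl/fl mice 1 to 4, which overlapped.

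*Gbp7* was listed at 8.0, 5.07, 6.34 and 4.70 FPKM in *Mtor*-cKO D7 replicates 1 to 4, against 2.97, 3.33, 3.44, 3.90 and 5.28 FPKM in *Mtor* fl/fl D7 replicates 1 to 5, with *Mtor* fl/fl replicate 5 inside the *Mtor*-cKO range. Baseline values were 3.29, 2.63, 3.89 and 5.05 FPKM in *Mtor*-cKO mice 1 to 4 and 3.81, 3.55, 3.44 and 5.26 FPKM in *Mtor* fl/fl mice 1 to 4. The log2 fold change at D7 was 0.65 (SE 0.19, edgeR adjusted p = 0.0178). Its counts were not whole in any of the 17 libraries, nor were those of *Gbp3*, so both are uncertain where reads are shared. *Gbp3* had a log2 fold change of 1.05 (SE 0.41, edgeR adjusted p = 0.0680).

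*Ifi44*, a cytoplasmic protein induced by type I interferon, had the largest D7 estimate of the 31. It was listed at 4.33, 2.42, 3.98 and 0.72 FPKM in *Mtor*-cKO D7 replicates 1 to 4, against 0.55, 0.60, 1.13, 0.59 and 0.78 FPKM in *Mtor* fl/fl D7 replicates 1 to 5. Replicate 4 of *Mtor*-cKO fell within the *Mtor* fl/fl range. At baseline it was 0.50, 0.42, 0.86 and 3.19 FPKM in *Mtor*-cKO mice 1 to 4 and 0.97, 0.53, 1.31 and 2.03 FPKM in *Mtor* fl/fl mice 1 to 4. The D7 log2 fold change was 1.94 (SE 0.56, edgeR adjusted p = 0.0181).

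*Parp14*, an ADP-ribosyltransferase, was listed at 7.12, 4.20, 6.64 and 4.38 FPKM in *Mtor*-cKO D7 replicates 1 to 4, against 2.30, 2.72, 3.72, 3.31 and 5.12 FPKM in *Mtor* fl/fl D7 replicates 1 to 5. *Mtor* fl/fl replicate 5 exceeded 2 of the *Mtor*-cKO libraries. Baseline values were 3.00, 2.02, 3.03 and 4.31 FPKM in *Mtor*-cKO mice 1 to 4 and 2.80, 2.06, 3.37 and 4.40 FPKM in *Mtor* fl/fl mice 1 to 4. The D7 log2 fold change was 0.68 (SE 0.23, edgeR adjusted p = 0.0399). *Parp9*, its partner among these genes, had a D7 log2 fold change of 0.75 (edgeR adjusted p = 0.0587), and *Xaf1* and *Ifi35* did not pass.

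*Ifi27* was the most abundant member, with a mean of 97.8 FPKM over all libraries, and the one member whose D7 estimate was below 0. It averaged 89.99 ± 4.04 FPKM in *Mtor*-cKO D7 (SD, n = 4) and 107 ± 13.1 FPKM in *Mtor* fl/fl D7 (SD, n = 5), a log2 fold change of -0.27 (SE 0.11, edgeR adjusted p = 0.0731). The adjusted p was 0.0304 with DESeq2 and 0.0165 in a fit of the D7 groups alone.

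No member of the other role groups passed at D7. The RNA and DNA sensors had a median log2 fold change of 0.71 over 4 genes, with *Trim25*, a ubiquitin ligase that activates RIG-I, as the most abundant, and *Zbp1*, a sensor of Z-form nucleic acids, at 1.5 (SE 0.56, edgeR adjusted p = 0.0576). The ISG15 system, *Isg15* and the protease *Usp18* that removes it, had a median of 1.16. *Isg15* averaged 18.0 ± 9.75 FPKM in *Mtor*-cKO D7 (SD, n = 4) and 8.04 ± 3.33 FPKM in *Mtor* fl/fl D7 (SD, n = 5). The OAS family, whose enzymes make the short adenylates that activate RNase L and which includes OAS-like proteins, had a median of 0.69 over *Oas1a*, *Oasl1* and *Oasl2*, with *Oasl2* as the most abundant at 47.9 ± 18.1 FPKM in *Mtor*-cKO D7 (SD, n = 4) and 28.4 ± 3.40 FPKM in *Mtor* fl/fl D7 (SD, n = 5). Among the other antiviral effectors, *Bst2*, the tethering factor that holds budding virions, was the most abundant, and the median over *Bst2*, *Rsad2* and *Isg20* was 0.84.

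Before injury, 1 of 31 members was higher in *Mtor*-cKO DRGs (*Ifit2*, above) and none was lower, where 7.97% of all genes were higher and 7.91% lower. Estimates ran from -0.81 (*Isg20*) to 0.70 (*Irf9*), with a median of 0.01, and 16 of 31 were above 0, as were 48% of all genes. The median was -0.48 without *Mtor*-cKO baseline replicate 4 and 0.23 without *Mtor* fl/fl baseline replicate 4.

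With injury in *Mtor* fl/fl mice, none of the 31 members passed, whereas 4.66% of all genes rose and 2.58% fell. No member reached an unadjusted p under 0.05 in either direction (10.4% of all genes did so upward and 9.48% downward), and DESeq2 called none. The median log2 fold change was -0.05, from -0.70 (*Ifi44*) to 0.57 (*Irf8*). In *Mtor*-cKO mice, *Gbp2* rose with injury, where 4.57% of all genes rose and 2.38% fell. *Gbp2* averaged 19.1 ± 7.26 FPKM at D7 and 7.30 ± 3.05 FPKM at baseline in *Mtor*-cKO DRGs (SD, n = 4 each), a log2 fold change of 1.36 (SE 0.36, edgeR adjusted p = 0.0312). This call was lost without *Mtor*-cKO D7 replicate 1 or 4 or *Mtor*-cKO baseline replicate 1, 2 or 3, without the muscle-rich libraries and with the macrophage covariate described below, with an edgeR adjusted p of up to 0.291 over these settings. DESeq2 called 7 members here, *Gbp2* and *Oas2* among them, against 6.73% of all genes. *Oas2* was tested through *Mtor*-cKO D7 alone, so its call is not counted as support. All 31 estimates were above 0 (49.5% of all genes), with a median of 0.76 (0.67 without *Oas2* and *Oas3*), and 11 members (9 without that pair) reached an unadjusted p under 0.05 (14.9% of all genes rose at that level). The median was 1.29 without *Mtor*-cKO baseline replicate 4 and 0.385 without the muscle-rich libraries. That pair holds the *Mtor*-cKO baseline library lowest for 26 members and the *Mtor*-cKO D7 library highest for 22. Its removal thus takes away a low baseline and a high D7 library. The highest *Mtor*-cKO baseline library overlapped the D7 values of all members but *Irf8*, whose groups did not overlap (15.7% of all genes).

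The injury effect was not shown to differ between the genotypes. No member passed the interaction test, nor by DESeq2, and 4 (*Gbp2*, *Gbp7*, *Ifi44* and *Parp9*) reached an unadjusted p under 0.05, against 7.82% of all genes. By adjusted p, 0.0671% of all genes were higher and 0.0149% lower. The interaction estimate had a median of 0.76 over the members (0.75 without *Oas2* and *Oas3*). This median was 1.31 without *Mtor*-cKO baseline replicate 4, 0.45 without *Mtor* fl/fl baseline replicate 4 and 0.36 without the muscle-rich libraries. The 2 injury comparisons and the 2 genotype comparisons share libraries with the interaction.

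The within-group SD of the 31 genes on the log2 CPM scale (counts scaled to library size) had a median of 0.60, against 0.18 over all genes tested. *Irf7* (1.05), *Oas2* (1.10) and *Oas3* (1.04) varied most, and *Ifit2* (0.15), *Ifi27* (0.16) and *Trim25* (0.18) least. Deviations from the group mean went together: the median correlation over 465 pairs of members was 0.78 across the 17 libraries, with 89.2% of pairs above 0.5, beside a median of 0.0 for pairs of all genes. The points of each correlation are the same libraries. *Irf9* had the highest median correlation with the other members (0.90) and *Stat2* the lowest (0.38).

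A single library was often the extreme. *Mtor*-cKO baseline replicate 4 was the highest of its group for 31 of 31 members, and *Mtor* fl/fl baseline replicate 4 for 28. Baseline replicate 2 was the lowest for 26 members in *Mtor*-cKO and for 21 in *Mtor* fl/fl DRGs. Among *Mtor*-cKO D7 libraries, replicate 1 was the highest for 22 members and replicate 3 for 9, while replicate 4 was the lowest for 24. *Mtor* fl/fl D7 replicate 5 was the highest for 21 members and replicate 1 the lowest for 19.

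**Figure D3:**
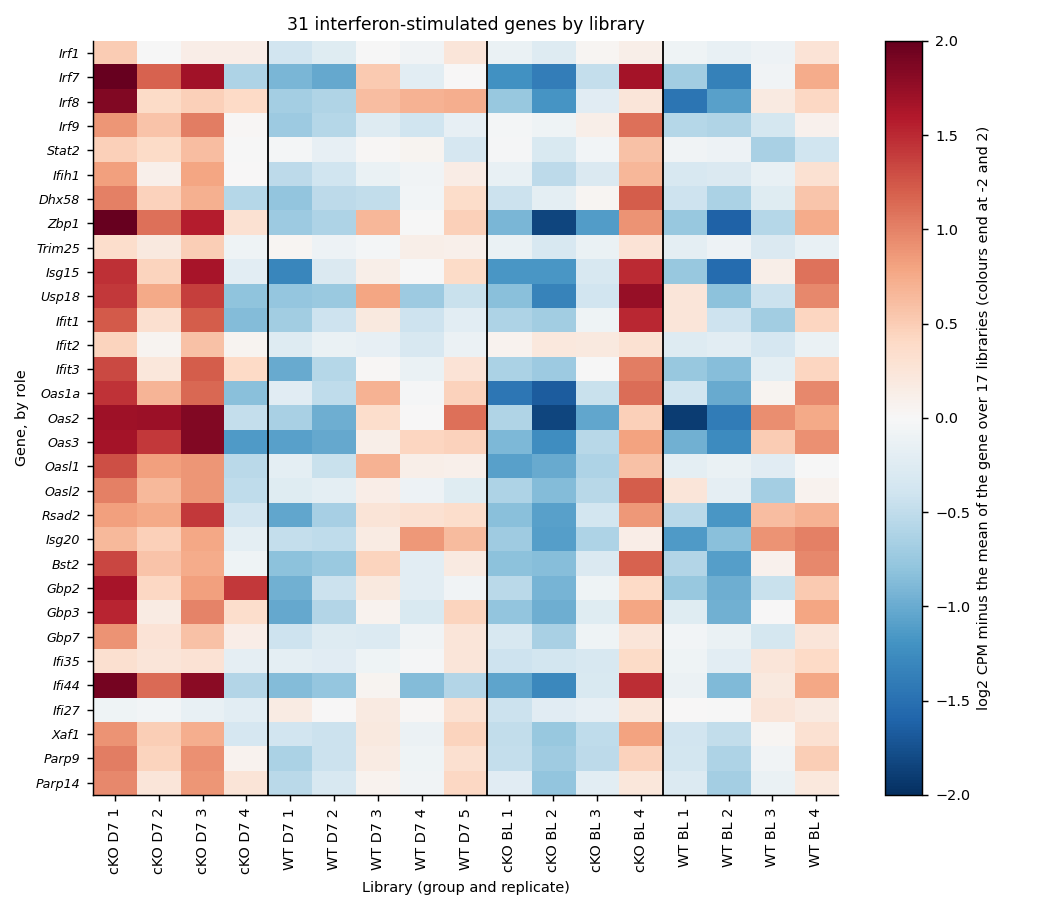
Log2 CPM of 31 interferon-stimulated genes (rows, by role) in 17 libraries (columns), each minus the gene's mean over all libraries, in red where higher and blue where lower; black lines part the groups. *Mtor*-cKO D7 replicates 1, 2 and 3 are above the mean for 30, 29 and 30 genes, *Mtor* fl/fl D7 replicates 3 and 5 for 23 each, and baseline replicate 4 for 31 in *Mtor*-cKO and 27 in *Mtor* fl/fl.

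The D7 call count rested on particular libraries. Without *Mtor*-cKO D7 replicate 1 it was 3 (*Irf9*, *Ifit2* and *Gbp2*), or 9.68% of the members, near the 9.03% of all genes higher in that fit. Without *Mtor*-cKO D7 replicate 3 it was 4, or 12.9%, against 9.35% of all genes. It was 15, *Oas3* among them, without *Mtor*-cKO D7 replicate 4 (10.9% of all genes), and 14 without *Mtor*-cKO baseline replicate 4 (12.9% of all genes), which enters through the shared spread. It was 5, or 16.1%, without *Mtor* fl/fl D7 replicate 1, 2, 3 or 4 or *Mtor*-cKO baseline replicate 3, against 10.5% to 11.9% of all genes. *Ifit3* lost its D7 call in these 7 fits in which the count was 5 or fewer, with an edgeR adjusted p of up to 0.136. *Parp14* lost it in the same fits and without *Mtor*-cKO baseline replicate 1 (edgeR adjusted p up to 0.136). *Stat2* lost it in 11 of 17 such fits (edgeR adjusted p up to 0.152), *Ifi44* without *Mtor*-cKO D7 replicate 1 or 3, and *Gbp7* without *Mtor*-cKO D7 replicate 1. *Irf9*, *Ifit2* and *Gbp2* passed at D7 under every setting run, with adjusted p from 0.000277 to 0.0197, from 8.86e-05 to 0.0139 and from 0.000476 to 0.0266 in edgeR and DESeq2 fits. In *Mtor*-cKO mice, the injury count was 17, *Oas2* among them, without baseline replicate 4 (5.18% of all genes), 4 without *Mtor* fl/fl baseline replicate 4 (5.43%) and 3 without *Mtor* fl/fl D7 replicate 5 (6.03%). It was 2, or 6.45% of the members, without *Mtor*-cKO D7 replicate 4 or *Mtor* fl/fl D7 replicate 1 or baseline replicate 2 or 3, near the 3.65% to 5.12% of all genes in those fits. It was 0 without *Mtor*-cKO D7 replicate 1 or *Mtor*-cKO baseline replicate 1, 2 or 3, where 2.28% to 3.12% of all genes rose.

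Markers of some other cell types moved with these libraries. The median relative log2 level of the 31 members was 1.03, 0.44, 0.88 and -0.18 in *Mtor*-cKO D7 replicates 1 to 4, and -0.64, -0.44, 0.14, -0.07 and 0.24 in *Mtor* fl/fl D7 replicates 1 to 5. The same measure over 16 macrophage markers was 0.44 to 1.08 in *Mtor*-cKO D7 and -0.31 to 1.02 in *Mtor* fl/fl D7 libraries. At baseline it was -0.96 to 0.17 in *Mtor*-cKO and -1.52 to 0.58 in *Mtor* fl/fl libraries, and in both genotypes replicate 4 was the highest for macrophage markers and for the members. No macrophage or lymphocyte marker was at 0 in any library. Summed macrophage FPKM ran from 558 to 1057 in *Mtor*-cKO D7 and from 288 to 845 in *Mtor* fl/fl D7 libraries. *Cd74*, the most abundant of the 16 markers, averaged 172.6 FPKM over all libraries and so weighs most in this sum. None of the 16 markers passed between the genotypes at D7 (median log2 fold change 0.32).

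The mean log2 CPM of the macrophage markers in each library was then used as a covariate, a setting chosen after seeing the data. With it, 14 members (*Oas3* among them) were higher and *Ifi27* was lower in *Mtor*-cKO at D7, and the member median was 0.52. Of all genes, 22.6% were higher and 17.3% lower in that fit, against 12.9% and 13.1% without the covariate. In the same setting the median injury change in *Mtor*-cKO mice was -0.02, with 0 members called, where 6.66% of all genes rose and 1.99% fell. In *Mtor* fl/fl mice 7 members fell with injury in that setting, as did 11.1% of all genes. The markers themselves had median log2 fold changes with injury of 1.26 in *Mtor*-cKO and 0.80 in *Mtor* fl/fl DRGs. The covariate is thus not independent of injury, which limits the injury estimates of that fit.

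*Mtor*-cKO D7 replicate 1 was also the highest of all libraries for 8 of 11 lymphocyte and NK cell markers, with *Cd3e* of T cells at 1.84 FPKM and at most 0.49 FPKM in the other 16 libraries. Summed FPKM of these 11 markers ran from 7.64 to 20.03 in *Mtor*-cKO D7 and from 4.41 to 9.67 in *Mtor* fl/fl D7 libraries, and none of the 5 markers tested passed at D7. Skeletal muscle markers were higher in *Mtor*-cKO D7, with 7 of 7 passing and a median log2 fold change of 3.40, and their summed FPKM ran from 29.7 to 440 in *Mtor*-cKO D7 and from 2.93 to 33.4 in *Mtor* fl/fl D7 libraries. Sensory neuron markers were lower in *Mtor*-cKO, 6 of 11 at D7 (13.1% of all genes) with a median log2 fold change of -0.45. At baseline, 4 of 11 were lower and 1 higher (7.91% and 7.97% of all genes), with a median of -0.31. Without the pair of muscle-rich libraries, a setting also chosen after seeing the data, the D7 count of members was 3, or 9.68%, against 8.2% of all genes.

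Markers of endothelial cells, adipocytes and fibroblasts were compared in the same way. Endothelial markers had median relative levels of 0.10 to 0.41 in *Mtor*-cKO D7 and -0.54 to -0.004 in *Mtor* fl/fl D7 libraries, which did not overlap, and 3 of 7 markers passed (median log2 fold change 0.42). Their summed FPKM ran from 63.8 to 72.4 in *Mtor*-cKO D7 and from 45.6 to 63.8 in *Mtor* fl/fl D7 libraries. Adipocyte markers had a D7 median log2 fold change of 1.88 with none of 5 passing, and summed to 34.4 to 68.8 FPKM in *Mtor*-cKO D7 and 2.57 to 40.4 FPKM in *Mtor* fl/fl D7 libraries. At baseline, their relative level was highest in replicate 4 of both genotypes, 1.37 in *Mtor*-cKO and 2.90 in *Mtor* fl/fl, as for the members. Fibroblast markers had a D7 median of 0.54 with 1 of 6 passing, and summed to 677 to 759 FPKM in *Mtor*-cKO D7 and 287 to 699.5 FPKM in *Mtor* fl/fl D7 libraries. No marker of these 3 lists was at 0 in all libraries of a group, and all but 1 adipocyte marker in *Mtor* fl/fl D7 were above 0 in every library. Other marker lists differed less or went the other way at D7. Median log2 fold changes were -0.58 for neutrophils (7 markers tested) and -0.23 for dendritic cells (1 tested). They were 0.04 for satellite glia (5 tested), 0.10 for myelinating Schwann cells (6 tested) and 0.18 for erythroid cells (5 tested). No marker of these lists passed at D7. The part of all these cell types in the member levels was otherwise not tested.

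**Figure D4:**
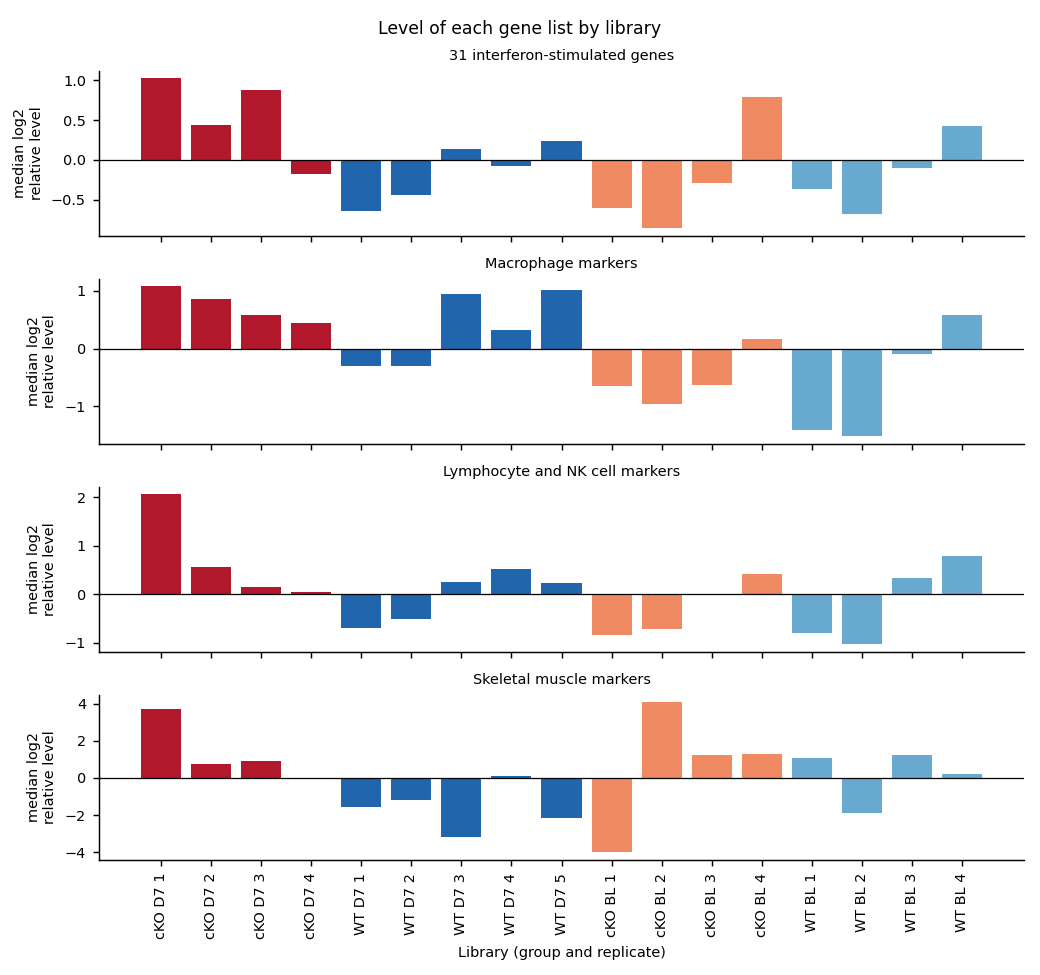
Median relative log2 level (y axes, log2 CPM minus each gene's mean over 17 libraries) of the 31 interferon-stimulated genes and of macrophage, lymphocyte and NK cell, and skeletal muscle markers in each library (x axis; bars coloured by group). *Mtor*-cKO D7 replicate 1 is the highest for the first 3 lists, at 1.03, 1.08 and 2.06.

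Genes upstream of the members were compared next, from lists of the pathway. Of 20 interferon ligand genes, 3 were in the tables and none reached the FPKM filter: *Ifng* was listed at 0.12 FPKM at most and summed to 11 expected counts over all libraries, *Ifnz* to 12 and *Ifnk* to 1. The other ligands were not analysed here. Among 12 receptor and JAK-STAT genes tested, 1 was higher and 1 lower in *Mtor*-cKO at D7, where 12.9% of all genes were higher and 13.1% lower. *Jak1*, the kinase shared by type I and type II receptors, averaged 65.7 ± 4.09 FPKM in *Mtor*-cKO and 98.5 ± 10.9 FPKM in *Mtor* fl/fl DRGs at D7 (SD, n = 4 and 5), a log2 fold change of -0.64 (SE 0.14, edgeR adjusted p = 0.00382). It was also lower at baseline, by a log2 fold change of -0.59 (SE 0.15, edgeR adjusted p = 0.0128). *Ifngr2*, a subunit of the interferon gamma receptor, was higher in *Mtor*-cKO at baseline, with a log2 fold change of 0.34 (SE 0.08, edgeR adjusted p = 0.00993). With injury, *Il10rb*, a subunit of the interferon lambda receptor, rose in both genotypes, and *Jak2* rose in *Mtor*-cKO DRGs by a log2 fold change of 0.46 (SE 0.06, edgeR adjusted p = 0.000409).

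Of 14 inducing sensors and adaptors tested, 2 were higher and 2 lower in *Mtor*-cKO at D7, which is near the 12.9% and 13.1% of all genes. *Tlr3*, a sensor of double-stranded RNA, was higher by 0.41 on the log2 scale (SE 0.12, edgeR adjusted p = 0.0224), and *Traf3*, an adaptor of interferon induction, was lower with a log2 fold change of -0.37 (SE 0.12, edgeR adjusted p = 0.0282). *Tmem173*, which encodes STING, rose with injury in both genotypes, with log2 fold changes of 0.74 (edgeR adjusted p = 0.0374) in *Mtor*-cKO and 0.75 (edgeR adjusted p = 0.0246) in *Mtor* fl/fl DRGs. *Tlr7*, a sensor of single-stranded RNA, averaged 2.08 ± 0.753 FPKM at D7 and 0.557 ± 0.277 FPKM at baseline in *Mtor*-cKO DRGs (SD, n = 4 each) and did not pass. In *Mtor* fl/fl DRGs it averaged 0.918 FPKM at D7 and 0.8175 FPKM at baseline, so it was tested through *Mtor*-cKO D7 alone.

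A further list of 63 interferon-stimulated genes, 55 of them tested, gave 17 higher and 1 lower in *Mtor*-cKO at D7, beside 12.9% and 13.1% of all genes, with a median log2 fold change of 0.80. Genes not named below were not checked for entry through *Mtor*-cKO D7 alone, so their calls and this median are not counted as support. *Gbp6*, another guanylate-binding protein, was at 7.35 ± 3.3 FPKM in *Mtor*-cKO and 2.55 ± 0.636 FPKM in *Mtor* fl/fl DRGs (SD, n = 4 and 5; log2 fold change 1.5, SE 0.34, edgeR adjusted p = 0.00393). *Pml*, which encodes the core of PML nuclear bodies, was higher by 0.62 (SE 0.14, edgeR adjusted p = 0.00501). *Oas1c* was the gene that fell, with a log2 fold change of -0.80 (SE 0.10, edgeR adjusted p = 4.44e-05), and it was also lower at baseline. With injury, this list gave 3 of 55 higher and 1 lower in *Mtor*-cKO, near the 4.57% and 2.38% of all genes, and 1 higher in *Mtor* fl/fl DRGs, where 4.66% of all genes rose. *Slfn9* rose in both, by 1.55 (SE 0.16) in *Mtor*-cKO and 1.01 (SE 0.16) in *Mtor* fl/fl DRGs.

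Of 18 MHC class I presentation genes, which interferons also induce, 5 were higher and none lower in *Mtor*-cKO at D7, beside 12.9% and 13.1% of all genes, with a median of 0.51. *Tapbp*, which encodes tapasin, averaged 40.9 ± 7.24 FPKM in *Mtor*-cKO and 27.3 ± 2.72 FPKM in *Mtor* fl/fl DRGs (SD, n = 4 and 5; log2 fold change 0.55, SE 0.12, edgeR adjusted p = 0.00337). *Nlrc5*, the transactivator of this class of genes, had a log2 fold change of 1.23 (SE 0.28, edgeR adjusted p = 0.00455), and *Erap1*, a peptide-trimming enzyme, of 0.46 (SE 0.11, edgeR adjusted p = 0.00694). *Nlrc5* averaged 1.49 FPKM in *Mtor*-cKO D7 and 0.775 FPKM in *Mtor*-cKO baseline DRGs. In *Mtor* fl/fl DRGs it averaged 0.618 FPKM at D7 and 0.6525 FPKM at baseline. It was thus tested only through the group where it was highest, so its call, 1 of the 5, is not counted as support. Genes of this list not named here were not checked in this way. *H2-Q7* passed both at D7 between the genotypes (1.24, SE 0.43, edgeR adjusted p = 0.0434) and with injury in *Mtor*-cKO mice (1.63, SE 0.47, edgeR adjusted p = 0.0467), and near-identical class I genes make its counts uncertain.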

How the data were processed

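RNA of 17 DRG libraries, 1 per mouse, was sequenced on the BGISEQ-500. The build is given as GRCm38.p5 in the methods and as mm9 in the submitters' processing notes, which list HISAT2 2.0.4, Bowtie2 2.2.5 and RSEM 1.2.12. The expected count values deposited by the authors are RSEM estimates per gene, 34.2% of them with a decimal part, and were rounded for tests; a member's count was called not whole where it lay over 0.05 from a whole number. The FPKM values were computed by the authors before deposit. Groups came from the sample labels. A further 2 libraries, in 8 columns of sheets with another numbering, were not used. In all, 28 symbols were mended by gene ID, and 1 entry without a name held 0 counts.

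Any gene averaging 1 FPKM or more in 1 of the 4 groups was kept (13408), and edgeR 4.0.16 in R 4.3.3 was run on TMM-normalized counts with a coefficient for every group and the quasi-likelihood test, with Benjamini-Hochberg adjustment, after the fit had been tested on simulated data. The SE was approximated by dividing the log2 fold change by the square root of the test's F. Log2 CPM used a prior count of 2. Library totals (17060876 to 21076542) limit the precision of low genes. Alternatives were DESeq2 1.42.0, RLE normalization, filterByExpr, no filter, the groups compared alone, a replicate block and each library left out. A macrophage covariate and the removal of the pair of muscle-rich libraries were added after seeing the data. Values in every sample were given for members past an adjusted p of 0.05 in any of the 5 comparisons, and up to 4 genes of the smallest p were named from each other pathway list. The members and lists were chosen with earlier results of these data known. Promoters came from RefSeq (GRCm38.p6) and positions from GENCODE M21. Tables and figures used Matplotlib 3.10.9, NumPy 2.4.6 and pandas 2.3.3 under Python 3.11.15.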

Additional observations from a re-analysis of the deposited data

Results flagged for a closer look

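Of 124 gene and group combinations, 18 held a library far from the others by Dixon's criterion at the 95% level, a criterion that chance meets in about 1 of 20 groups. Of these, 14 were *Mtor*-cKO baseline replicate 4, in each case the highest of its group: *Irf7* at 21.8 FPKM, *Irf9* at 26.5 FPKM, *Ifih1* at 4.87 FPKM, *Zbp1* at 3.91 FPKM, *Isg15* at 25.5 FPKM, *Usp18* at 9.58 FPKM, *Ifit1* at 36.0 FPKM, *Oasl1* at 1.88 FPKM, *Oasl2* at 74.2 FPKM, *Bst2* at 39.9 FPKM, *Ifi35* at 15.6 FPKM, *Ifi44* at 3.19 FPKM, *Xaf1* at 20.5 FPKM and *Parp9* at 5.31 FPKM. These genes vary together, so the 14 are not separate observations. The others were *Irf8* at 8.37 FPKM in *Mtor*-cKO D7 replicate 1 and *Usp18* at 4.82 FPKM in *Mtor* fl/fl D7 replicate 3, both the highest, *Zbp1* at 3.95 FPKM in *Mtor* fl/fl baseline replicate 4, the highest, and *Oas2* at 0.53 FPKM in *Mtor*-cKO D7 replicate 4, the lowest. No member passed the interaction test, so no difference of the injury effect between the genotypes was found.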

How the results depend on the processing

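In parentheses is the share of all genes higher in the same fit. Members higher in *Mtor*-cKO at D7 numbered 8 (12.9%). The count was 12 with DESeq2 (13.1%), 7 with RLE normalization (11.3%), 7 with no filter (8.76%) and 5 with filterByExpr (9.69%). It was 13 with the D7 groups alone (12.6%), 15 with the replicate block (16.4%), 3 without the muscle-rich libraries (8.2%), 14 with the macrophage covariate (22.6%), and 3 to 15 with 1 library left out. *Ifi27* was lower with DESeq2, filterByExpr, the groups alone and the covariate, 1 member each, and 0 to 1 with 1 library left out. All genes called at D7 numbered 3483, against 2304 without the muscle-rich libraries and 5351 with the covariate. For injury in *Mtor*-cKO mice, members higher numbered 1 (4.57%), against 7 with DESeq2 (6.73%), 8 with the groups alone (16.9%), 7 with the block (8.07%), 0 without the muscle-rich libraries (1.45%), 0 with the covariate (6.66%) and 0 to 17 with 1 library left out. All genes called there numbered 932, against 1827 with DESeq2, 4185 with the groups alone, 1685 with the block, 214 without the muscle-rich libraries and 388 to 1336 with 1 library left out, and the member median was -0.0198 with the covariate, against 0.76. At baseline, members higher numbered 1 (7.97%), against 2 with DESeq2 (9.51%), 2 with the covariate (15.4%) and 1 to 2 with 1 library left out. Wherever this count was 2, the members were *Ifit2* and *Irf9*. Members lower numbered 1 with the covariate and 0 to 1 with 1 library left out. All genes called at baseline numbered 2130, against 1171 with the groups alone, 1415 without the muscle-rich libraries, 3832 with the covariate and 1397 to 2627 with 1 library left out. For injury in *Mtor* fl/fl mice, 7 members were lower with the covariate, as were 11.1% of all genes, against 0, and all genes called numbered 971, against 319 with the groups alone, 3478 with the covariate and 639 to 1283 with 1 library left out. For the interaction, all genes called numbered 11, against 258 with DESeq2, 5 with filterByExpr, 161 with the block, 0 without the muscle-rich libraries, 302 with the covariate and 1 to 119 with 1 library left out, and the member median ran from 0.45 to 1.31 with 1 library left out. The causes were not tested. Of 992 values of the 8 named genes under alternatives, 923 stayed on their side of the threshold, 47 lost the call and 22 gained it, and none reversed. Besides single libraries left out, D7 calls were lost by *Stat2* under RLE normalization, filterByExpr, no filter, the block and removal of the muscle-rich libraries, by *Ifit3* and *Parp14* under filterByExpr and that removal, and by *Gbp7* and *Ifi44* under that removal. Same-numbered libraries of different groups (24 pairs) had correlations of -0.47 to 0.62 (median -0.06, 9 over 0.1). Those with different numbers (84 pairs) had correlations of -0.67 to 0.73 (median 0.05, 32 over 0.1). Some libraries of different groups thus deviated together. In *Mtor* fl/fl mice, D7 replicates 1 and 2 had correlations of 0.56 to 0.67 with baseline replicates 1 and 2. With baseline replicates 3 and 4 they had -0.67 to -0.51. D7 replicate 5 had 0.73 and 0.54 with baseline replicates 3 and 4, and -0.61 and -0.67 with 1 and 2. D7 replicates 3 and 4 ran from -0.23 to 0.35. What these libraries share was not tested. The numbers were not shown to pair the mice, and the block result is given here only. Low members such as *Oas2* and *Oas3*, near 1 FPKM, are limited by depth. *Oas2* is in the *Mtor*-cKO injury counts with DESeq2, the groups alone and the block, and in the D7 count with the block. *Oas3* is in the D7 counts with the block and the covariate. Both were tested through *Mtor*-cKO D7 alone, so these calls are not counted as support.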
